A study of Sus scrofa with 23 samples.

Results

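The effect of pig line on muscle gene expression was measured as the low residual feed intake line minus the mean of both groups of the high line, so that the feeding of the high line was averaged out. All 23 arrays of the series entered this comparison, 7 from the low line and 16 from the high line. A pig's residual feed intake (RFI) is what it eats beyond the amount predicted from its growth and maintenance, so a low value marks an animal that eats less than predicted. Total RNA came from the Longissimus, the long back muscle, of pigs at 115 kg body weight, and each pig had its own 1-colour Agilent array. The 7 low-RFI pigs (RFIneg) and 8 high-RFI pigs (RFIpl) ate ad libitum, and the other 8 high-line pigs (restricted high-RFI, RFIplR) were given the feed level of the low line. Age, sex and litter were not given in the sources used here. As each direction of selection is represented by 1 line, selection on RFI cannot be told apart from other genetic differences between the 2 lines.

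Longissimus is mainly a fast, glycolytic muscle, in which glycolysis supplies most of the energy for contraction and a smaller population of slow fibres relies on mitochondrial oxidation. Protein synthesis by ribosomes, protein breakdown and mitochondrial respiration are large items in the energy budget of muscle, and for that reason they are often examined in lines selected for feed efficiency. The tissue also holds fat cells, vessels, nerve endings, connective tissue and immune cells, whose RNA is part of each sample. Fewer cells of a type and less RNA per cell cannot be told apart in such bulk samples.

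Of 27785 probes measured above background, 102 (0.367%) passed an adjusted p of 0.05 for the line effect in limma. Of these, 47 (0.169%) were higher and 55 (0.198%) were lower in the low line. An unadjusted p under 0.05 was reached by 2908 probes (10.5%), where 1389 would be expected if no probe differed. With the background corrected by normexp on the mean signal, no probe passed in limma, and 392 had an unadjusted p under 0.05, fewer than those 1389. With median centring 37 probes passed, 13 higher and 24 lower (35.1% higher), with quantile normalization 65, 23 higher and 42 lower (35.4%), and with the robust normexp 75, 42 higher and 33 lower, against 46.1% higher here. Levels below are log2 signal relative to the 75th percentile of the same array, so 0 is the signal of a fairly bright probe, and a line difference is in log2 units, with 1 unit equal to a doubling. The number of pigs limits the precision of every value.

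Each probe is a 60-base sequence, and the probes on which several of the results rest are given here so that it can be seen which of them read the same stretch of a transcript. Capitals mark stretches of at least 12 bases that a probe shares with another probe of its set. CD40 was read by 3 probes, of which the first pair share 14 bases. OAZ3 was read by 2 probes that share no such stretch. Of the 3 DLD probes shown, the first pair share a run of 33 bases. The 3 RPL6-like probes share runs of 21 to 27 bases, and the last of them has no gene symbol in the files. The last 2 probes have no symbol and no overlap between the lines.
CD40 A_72_P124966: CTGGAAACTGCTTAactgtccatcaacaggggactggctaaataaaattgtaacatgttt
CD40 A_72_P088376: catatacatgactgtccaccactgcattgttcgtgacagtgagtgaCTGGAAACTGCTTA
CD40 A_72_P544217: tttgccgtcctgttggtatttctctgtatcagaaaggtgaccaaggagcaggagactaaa
OAZ3 A_72_P619999: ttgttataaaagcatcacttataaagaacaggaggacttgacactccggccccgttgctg
OAZ3 A_72_P437459: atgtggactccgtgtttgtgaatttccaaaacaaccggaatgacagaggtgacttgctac
DLD A_72_P592144: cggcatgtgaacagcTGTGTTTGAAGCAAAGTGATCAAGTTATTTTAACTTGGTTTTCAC
DLD A_72_P571849: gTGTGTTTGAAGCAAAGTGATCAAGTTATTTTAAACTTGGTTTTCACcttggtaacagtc
DLD A_72_P616219: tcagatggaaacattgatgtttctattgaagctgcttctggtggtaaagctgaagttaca
RPL6 A_72_P719128: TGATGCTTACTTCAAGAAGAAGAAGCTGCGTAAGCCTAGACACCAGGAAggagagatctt
RPL6 A_72_P722398: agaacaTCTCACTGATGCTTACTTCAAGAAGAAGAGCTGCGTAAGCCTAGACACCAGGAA
RPL6-like A_72_P774083: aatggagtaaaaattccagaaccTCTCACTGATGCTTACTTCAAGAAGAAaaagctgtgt
A_72_P226322: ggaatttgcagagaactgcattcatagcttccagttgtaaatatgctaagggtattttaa
A_72_P244152: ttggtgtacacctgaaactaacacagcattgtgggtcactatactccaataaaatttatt

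One slide stood apart from the others. Between 41.65% and 78.99% of probes were well above background on an array, with medians of 69.3% in low-RFI, 67.96% in high-RFI and 67.18% in restricted pigs. On the third slide, which held low-RFI pig 7, high-RFI pig 5 and restricted pigs 6 and 8, the shares were 41.65%, 54.45%, 45.83% and 58.85%, while the other 19 arrays were at 58.16% or more. Without these 4 arrays 34 probes passed, and the part of slide quality in the other calls was not tested. Pairwise correlations between arrays over the measured probes ran from 0.967 to 0.99. The tissue label was borne out by its markers. Of 18 skeletal muscle markers, 13 had a probe, and each of the 13 was above background on all 23 arrays. The line difference was positive for 15568 of 27785 probes (56%), and its median was 0.0229 over all probes and 0.0202 over all measured genes.

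With each gene represented by its brightest measured probe, 14 of 4282 genes (0.327%) passed, 4 higher (0.0934%) and 10 lower (0.234%) in the low line. The genes lower in the low line were CD40, SAL1, MTHFD1, WDHD1, UCHL1, GPX3, OAZ3, EZR, COQ5 and DLD. The genes higher in the low line were SLC7A2, C4H8orf37, RSF1 and BIRC5. The plot of levels by pig shows that the ranges of the lines met or crossed for 13 of the 14.

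**Figure D1:**
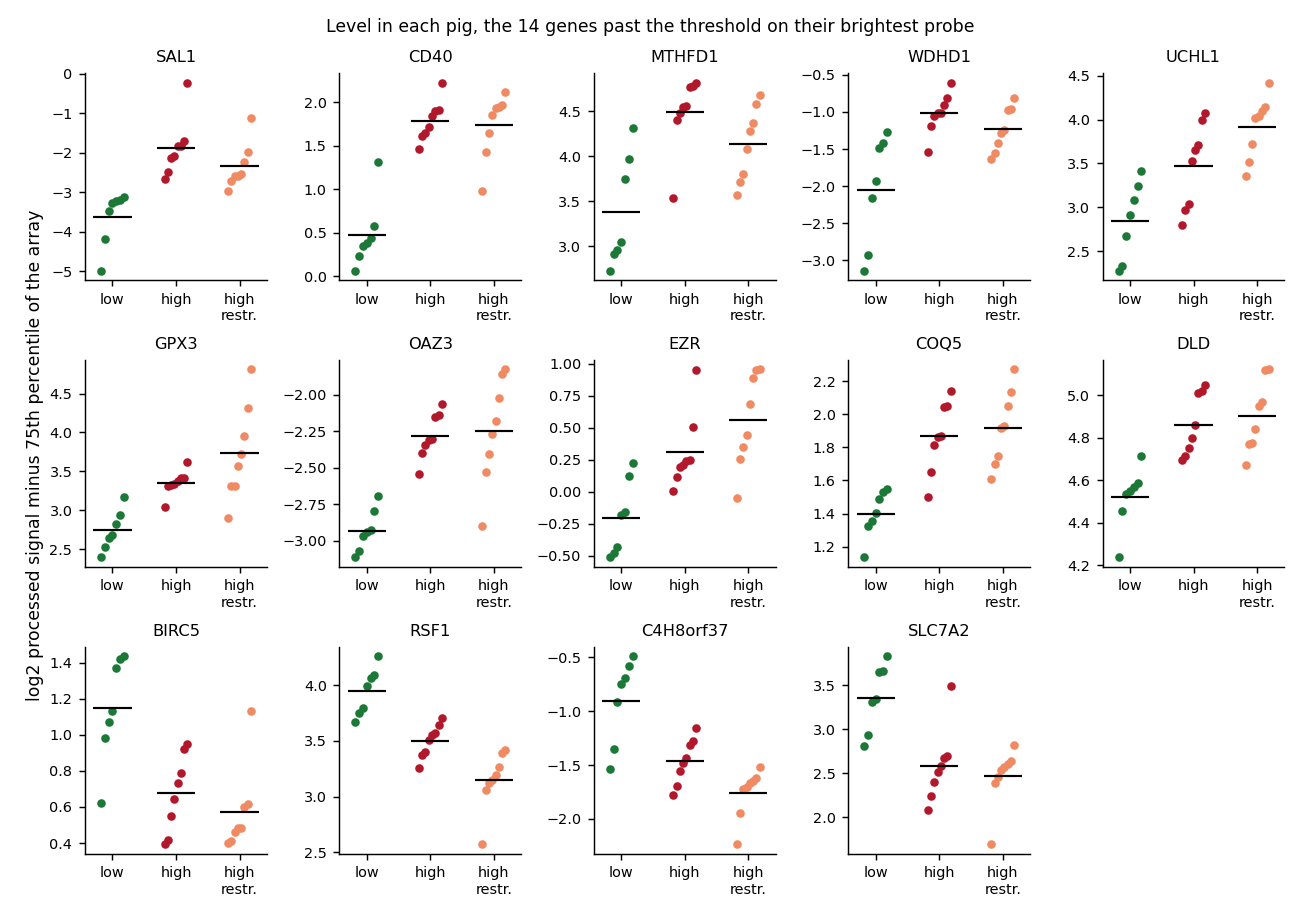
Level in each pig (log2 processed signal minus the 75th percentile of the array, y axis) for the 14 genes past the threshold, with a panel per gene, the groups on the x axis, a point per pig and a bar at the group mean. SAL1 is the gene with all 7 low-line pigs below all 16 high-line pigs, and CD40 misses this by 1 low-line pig at 1.32.

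CD40 encodes the receptor of the tumour necrosis factor receptor family through which T cells activate B cells and other antigen-presenting cells. Its brightest probe ranged from 0.07 to 1.32 in the low line (median 0.38), from 1.47 to 2.23 in freely fed high-line pigs (median 1.78) and from 0.98 to 2.12 in restricted high-line pigs (median 1.89). Only the highest low-line pig reached into the range of the restricted group. CD40 was 2.43-fold lower in the low line, a difference of -1.28 (SE 0.15, 95% confidence interval -1.59 to -0.97, adjusted p = 0.0001). The other CD40 probes gave -1.25 (adjusted p = 6.92e-05) and -1.31 (adjusted p = 1.89e-05). On the last of these, which shares no stretch with the others, the 7 low-line pigs (-3.22 to -2.31) lay below all 16 high-line pigs (-2.23 to -1.07). CD40 was lower in the low line on all 6 slides, though it was called on these same arrays.

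Of 9 measured members of a list of CD40 signalling and B cell genes, 7 were higher and 2 lower, with a median of 0.067, and CD40 alone passed. TRAF6 and TRAF3, adaptor proteins that bind to the receptor tail, had differences of 0.61 and 0.35 without passing. The B cell marker CD79A was above background on 2 of 23 arrays. Of 15 measured leukocyte markers, 8 were lower and 7 higher (median -0.0125), and none passed. A pair of MHC lists had medians of -0.063 for class I (3 of 14 higher, 11 lower) and 0.006 for class II (6 of 12 higher, 6 lower), and no member of either passed.

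Of the genes of polyamine and amino acid metabolism, OAZ3 was lower and SLC7A2 higher in the low line. OAZ3 is an antizyme, a protein that inhibits ornithine decarboxylase and so limits polyamine synthesis, and it is best known from testis. Its brightest probe ranged from -3.12 to -2.69 in the low line (median -2.94), from -2.54 to -2.06 in the high-RFI group (median -2.31) and from -2.90 to -1.83 in the restricted group (median -2.23). Apart from the lowest restricted pig, all high-line pigs lay above the low line. The difference was -0.67 (SE 0.11, adjusted p = 0.00819).

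The second OAZ3 probe, A_72_P437459, gave a larger difference. It ranged from -6.63 to -2.34 in the low line (median -6.06), from -2.48 to -1.06 in the high-RFI group (median -1.53) and from -2.49 to -0.99 in the restricted group (median -1.83). Low-RFI pig 7, at -2.34, lay inside the range of the high line, and the other 6 low-line pigs were at -5.61 or below. This probe was well above background in 0 of 7 low-line pigs and in all 16 high-line pigs (adjusted p = 2.31e-05 in the fit). It was thus kept through the high line alone, and the size of its fold change is uncertain. The low line was 8.17-fold lower when low-line values below the lowest signal detected on their array were raised to that signal. Higher low-line values were kept as measured. As undetected signal can exceed the lowest detected signal, 8.17 is not a strict bound. Of 12 measured polyamine genes, 6 were higher and 6 lower, with a median of -0.021, and OAZ3 alone passed. Ornithine decarboxylase itself, ODC1, had a difference of -0.33, and SAT1, which acetylates polyamines for export, had -0.18. Neither passed.

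SLC7A2 is a plasma membrane transporter of arginine, lysine and ornithine. Its level ranged from 2.81 to 3.83 in the low line (median 3.34), from 2.08 to 3.50 in the high-RFI group (median 2.55) and from 1.69 to 2.82 in the restricted group (median 2.56). A single high-RFI pig, at 3.50, stood inside the low-line range, and the highest restricted pig touched its lower end. The difference was 0.84 (SE 0.17, adjusted p = 0.031), or 1.79-fold.

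Of the enzymes of mitochondria, DLD and COQ5 were lower in the low line. DLD is dihydrolipoamide dehydrogenase, the subunit that the pyruvate and 2-oxoglutarate dehydrogenase complexes share. On its brightest probe the level ranged from 4.24 to 4.72 in the low line (median 4.55), from 4.69 to 5.05 in the high-RFI group (median 4.83) and from 4.67 to 5.12 in the restricted group (median 4.89). The ranges touched only at their ends. The difference was small, at -0.36 (SE 0.08, adjusted p = 0.0426). All 9 DLD probes were lower in the low line and 5 of them passed. On 3 of these (A_72_P592144, A_72_P571849 and A_72_P616219, with differences of -0.35, -0.36 and -0.47) all low-line pigs lay below all high-line pigs.

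COQ5 is a methyltransferase of coenzyme Q synthesis. It ranged from 1.14 to 1.55 in the low line (median 1.41), from 1.5 to 2.14 in the high-RFI group (median 1.86) and from 1.61 to 2.27 in the restricted group (median 1.92). The difference was -0.49 (SE 0.10, adjusted p = 0.0222). COQ2, the prenyltransferase of the same pathway, had the opposite sign (0.62, adjusted p = 0.0917) and did not pass.

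Of 17 measured genes of the tricarboxylic acid cycle and pyruvate dehydrogenase, 17 had a negative line difference, with a median of -0.157 against 0.0202 over all genes, and DLD was the member that passed. MDH1 (malate dehydrogenase) stood at -0.32 and SDHA (succinate dehydrogenase) at -0.24. Of 29 nuclear-encoded genes of the respiratory chain and ATP synthase, 25 were negative (median -0.106) and none passed. Among them, NDUFB9, a complex I subunit, stood at -0.37 and CYCS, cytochrome c, at -0.34. Fatty acid uptake and oxidation was mixed, with 10 of 24 genes positive and 14 negative (median -0.067), no call, and DECR1 at -0.47. PPARGC1A, the coactivator that drives mitochondrial gene expression, had -0.99 and did not pass. Under normexp the medians turned to 0.0194 for the tricarboxylic acid cycle, 0.0908 for the respiratory chain and 0.0386 for fatty acid oxidation.

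GPX3 is a secreted, selenium-containing glutathione peroxidase. It ranged from 2.40 to 3.17 in the low line (median 2.69), from 3.05 to 3.63 in the high-RFI group (median 3.35) and from 2.90 to 4.81 in the restricted group (median 3.64). The restricted pigs were the most spread. The difference was -0.80 (SE 0.17, adjusted p = 0.0426), and all 4 GPX3 probes were lower, 2 of them past the threshold. Among 18 antioxidant genes, 10 were higher and 8 lower (median 0.014), and GPX3 alone passed. SOD2, the mitochondrial superoxide dismutase, had -0.44.

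MTHFD1 is a cytosolic enzyme that interconverts the one-carbon forms of folate. It ranged from 2.73 to 4.31 in the low line (median 3.04), from 3.54 to 4.82 in the high-RFI group (median 4.55) and from 3.57 to 4.68 in the restricted group (median 4.18). Of the 7 low-line pigs, 3 lay within the range of the high line. The difference was -0.93 (SE 0.21, adjusted p = 0.0493), and it was negative on 4 of 6 slides, the fewest of any probe that passed. A second probe gave -0.41 and did not pass, while the probe A_72_P382818, described as MTHFD1 but without a symbol, gave -1.80 (adjusted p = 0.0424). That probe was above background in 3 of 7 low-line pigs and in all 8 pigs of each high-line group. It was thus kept through the high line alone, where it was higher, and is no support of its own. Of 7 folate genes, 3 were higher and 4 lower, with a median of -0.018. SHMT2, the mitochondrial serine hydroxymethyltransferase, had 0.26 without passing.

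RSF1 and BIRC5 were higher in the low line. RSF1, a histone-binding subunit of a chromatin remodelling complex, ranged from 3.66 to 4.26 in the low line (median 3.99), from 3.25 to 3.70 in the high-RFI group (median 3.53) and from 2.57 to 3.42 in the restricted group (median 3.17). The low line lay above all restricted pigs and overlapped the high-RFI group at its edge. The difference was 0.62 (SE 0.10, adjusted p = 0.00458), or 1.54-fold, and all 4 RSF1 probes were higher, 2 of them past the threshold. BIRC5, or survivin, acts in chromosome segregation and inhibits cell death. It ranged from 0.62 to 1.43 in the low line (median 1.13), from 0.39 to 0.95 in the high-RFI group (median 0.69) and from 0.40 to 1.13 in the restricted group (median 0.48), with a difference of 0.52 (SE 0.11, adjusted p = 0.0426). A second BIRC5 probe gave 0.41 and did not pass.

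WDHD1, a factor of the DNA replication fork, was lower in the low line and dim. It ranged from -3.14 to -1.26 in the low line (median -1.93), from -1.54 to -0.60 in the high-RFI group (median -1.01) and from -1.63 to -0.81 in the restricted group (median -1.26), with a difference of -0.92 (SE 0.20, adjusted p = 0.0467). Its second probe had the opposite sign, 0.42, and did not pass, so the direction of WDHD1 rests on 1 of 2 probes.

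UCHL1 is a deubiquitinating enzyme that is abundant in neurons. It ranged from 2.28 to 3.42 in the low line (median 2.91), from 2.80 to 4.07 in the high-RFI group (median 3.59) and from 3.36 to 4.42 in the restricted group (median 4.03). The low line overlapped the freely fed group widely and the restricted group at its edge. The difference was -0.85 (SE 0.19, adjusted p = 0.0457), and a second probe gave -0.82 and did not pass. Of 6 measured nerve and Schwann cell genes, 2 were higher and 4 lower (median -0.139), with UCHL1 as the member that passed. The myelin gene MBP had 0.47 and did not pass.

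EZR encodes ezrin, which ties the plasma membrane to the actin cytoskeleton. It ranged from -0.51 to 0.22 in the low line (median -0.18), from 0.01 to 0.95 in the high-RFI group (median 0.22) and from -0.05 to 0.96 in the restricted group (median 0.57). The difference was -0.64 (SE 0.14, adjusted p = 0.0493), and a probe described as ezrin without a symbol, A_72_P641239, gave -0.62 (adjusted p = 0.0408).

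SAL1 is salivary lipocalin, a small carrier protein of pig saliva that binds odorants. It ranged from -4.98 to -3.11 in the low line (median -3.26), from -2.65 to -0.22 in the high-RFI group (median -1.94) and from -2.96 to -1.12 in the restricted group (median -2.56). All low-line pigs lay below all high-line pigs. The difference was -1.53 (SE 0.29, adjusted p = 0.0195), or 2.88-fold. SAL1 was well above background in 5 of 7 low-line pigs, so it was kept through the high line, where it was higher. On the second probe, at -1.85 (adjusted p = 0.0418), 2 of 7 low-line pigs were above background. C4H8orf37, which is linked to photoreceptor maintenance, ranged from -1.54 to -0.49 in the low line (median -0.74), from -1.78 to -1.15 in the high-RFI group (median -1.46) and from -2.24 to -1.52 in the restricted group (median -1.69). The difference was 0.71 (SE 0.13, adjusted p = 0.0135), and a second probe gave 0.45 and did not pass.

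A further 8 genes had a probe past the threshold although their brightest probe did not pass. RPL6, a protein of the large ribosomal subunit, was the most covered: all 13 of its probes were higher in the low line and 9 passed. On A_72_P719128 the low line (6.74 to 7.05) lay above the high-RFI group (6.07 to 6.62) and the restricted group (6.2 to 6.68), with a difference of 0.44 (adjusted p = 0.0137). A_72_P722398 also had no overlap (0.36, adjusted p = 0.0322), and the unnamed RPL6-like probe A_72_P774083 gave 0.62 (adjusted p = 0.0441). The probes of RPL6 share sequence with each other, so they are not independent readings. Its brightest probe gave 0.19 (adjusted p = 0.308).

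Other genes with such a probe were RPL14, ESD, SNX5, KLF3, RHOV and UAP1. RPL14, also of the large subunit, was higher on 6 of 6 probes, with 0.43 on the probe that passed (adjusted p = 0.0467). ESD, which hydrolyses S-formylglutathione, was higher on 9 of 9 probes, and 2 passed. SNX5, a sorting nexin, was higher on 6 of 7 probes, with 0.53 on the 1 that passed. UAP1, which makes UDP-N-acetylglucosamine, was lower on 8 of 8 probes, from which 1 passed at -0.75 (adjusted p = 0.042). The probes of KLF3, a transcriptional repressor, disagreed in sign: 1 gave 1.07 (adjusted p = 0.0247) and the brightest -0.26. For RHOV, a small GTPase, the called probe gave 0.90 and the brightest 0.46.

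**Figure D2:**
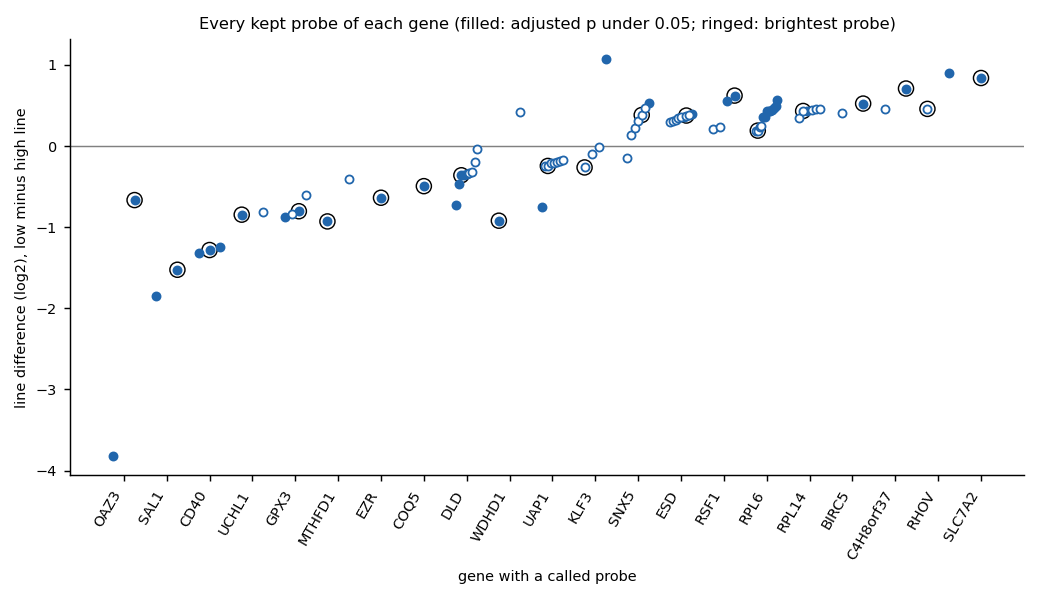
Line difference (log2, y axis) of every measured probe for 21 of the 22 genes with at least 1 probe past the threshold (x axis), with filled points for adjusted p under 0.05 and a ring around the brightest probe. All 13 RPL6 probes and all 9 ESD probes lie above 0 and all 9 DLD and 8 UAP1 probes below it, while WDHD1, KLF3 and SNX5 have probes on both sides.

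The genes next in order of p on their brightest probe did not pass. They were FN1 (fibronectin, -0.62, adjusted p = 0.0654), NTN1 (netrin-1, -0.67, 0.0672, with 0.13 on another probe), ESD (0.38, 0.0677), COQ2, UGP2 (UDP-glucose pyrophosphorylase of glycogen synthesis, -0.49, 0.0966) and NPW (neuropeptide W, 0.43, 0.11). UGP2 was negative on 5 of 5 probes.

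Of the 102 probes, 61 had no gene symbol. A_72_P427894 ranged from -3.26 to -1.53 in the low line (median -2.59), from -7.71 to -2.84 in the high-RFI group (median -6.44) and from -7.43 to -2.50 in the restricted group (median -6.15). It was well above background in 6 of 7 low-line pigs but in 1 and 2 of the 8 pigs of the other groups, and its difference of 3.29 (SE 0.68, adjusted p = 0.0352) rests on dim values in the high line. The other probes higher in the low line with the largest differences were A_72_P343443 (2.63), A_72_P284304 (2.37) and A_72_P226322 (1.84). They too were above background in 6 of 7 low-line pigs but in few high-line pigs, 2 of 8 high-RFI and 1 of 8 restricted for A_72_P343443, 3 and 3 for A_72_P284304, and 4 and 4 for A_72_P226322, so the sizes and their order are uncertain. On A_72_P226322 all low-line pigs (-3.29 to -2.10) lay above all high-line pigs (-6.30 to -3.37). These probes, A_72_P427894 included, reached the required 6 arrays of a group in the low line only. They were thus kept through the group in which they were high, and their separation is no support of its own.

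The largest differences towards the high line among probes without a symbol were A_72_P008606 (-1.91, adjusted p = 0.00137), A_72_P382818 (-1.80), A_72_P172091 (-1.75, described as similar to neurensin-1) and A_72_P198172 (-1.61). They were above background in 1, 3, 5 and 4 of the 7 low-line pigs, so these sizes and their order are uncertain as well. These probes were kept through the high line alone. A_72_P244152 was brighter, with -0.29 to 0.24 in the low line, 0.94 to 2.28 in the high-RFI group and 0.36 to 1.49 in the restricted group. Its difference was -1.11 (adjusted p = 0.00102), with no overlap. This probe shares at least 20 bases with A_72_P178261 and A_72_P395793 on the same strand and with A_72_P181796 on the opposite strand. None of those was among the probes that passed. In all, the lines did not overlap on 16 of 27785 probes (0.0576%), with the low line above on 7 (0.0252%) and below on 9 (0.0324%), of which 10 were among the 102 that passed.

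The descriptions in the files tie 14 of the probes without a symbol to a gene. Those probes included PCIF1, which methylates the cap-adjacent base of mRNAs (0.84, adjusted p = 0.00241), SNX21, a sorting nexin (-0.87, 0.00257), and MICU3, a regulator of calcium uptake by mitochondria (-0.81, 0.0135). FMN1, an actin-nucleating formin, gave 1.21 (0.0185), and PDK1, a kinase that inhibits pyruvate dehydrogenase, gave -0.47 (0.0491). The brightest PDK1 probe with a symbol gave -0.005 (adjusted p = 0.996), so the PDK1 difference rests on the described probe.

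PCIF1 and SNX21 lie close to CD40 in the gene order of the Sscrofa11.1 annotation, 8 and 16 places away on the same side. The measured neighbours differed in sign and size. ACOT8, a peroxisomal thioesterase 15 places before CD40, had -0.37 (adjusted p = 0.155). PLTP, 9 places before CD40, had 0.29, MMP9, between PCIF1 and CD40, had -0.02, and CDH22, 2 places after CD40, had 0.18. The probes of PCIF1 and SNX21 that carry a symbol gave 0.52 (adjusted p = 0.136) and -0.17 (adjusted p = 0.503) and did not pass. Other called genes near each other in the gene order were MICU3 and SLC7A2, with 7 genes between them, COQ5 and RPL6 with 27, and KLF3 and UCHL1 with 29.

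**Figure D3:**
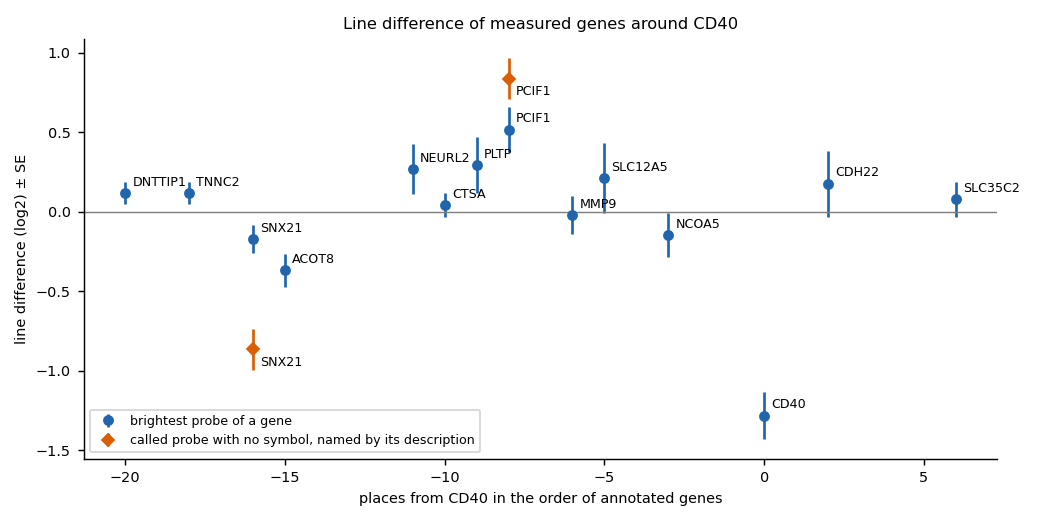
Line difference (log2, with its SE, y axis) of measured genes within 20 places of CD40 in the order of annotated genes (x axis), with circles for the brightest probe of a gene and diamonds for probes named by their description. CD40 at -1.28 and the described SNX21 probe at -0.87 are the lowest, and the described PCIF1 probe at 0.84 is the highest.

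Several gene lists of muscle metabolism and structure had line differences mostly of 1 sign, and others were mixed. The shares below are read against all 4282 genes, of which 2362 (55.2%) were higher in the low line. All 39 measured cytosolic ribosomal protein genes were higher in the low line, with a median of 0.17. Of these, 29 had an unadjusted p under 0.05 in limma, against 472 of all 4282 genes (11%), 274 of them higher. None of the 39 passed after adjustment on its brightest probe. The median was 0.0902 under quantile normalization and 0.365 under normexp. RPL14 stood at 0.43, RPLP0 at 0.25 and RPS12 at 0.21. The mean level of the list ranged from 7.78 to 8.01 in the low line, from 7.44 to 7.82 in the high-RFI group and from 7.60 to 7.87 in the restricted group, and the difference was positive on 6 of 6 slides. Of 11 translation factors, 7 were positive (median 0.109), with EEF1A1, the elongation factor that brings aminoacyl-tRNA to the ribosome, at 0.50. Of 13 mitochondrial ribosomal protein genes 4 were higher, with a median of -0.038 that turned to 0.11 under normexp. An unadjusted p under 0.05 was reached by 2 of 17 tricarboxylic acid cycle and 6 of 29 respiratory chain genes. The counts were 4 of 14 for heat shock, 4 of 11 for glycolysis and 1 of 12 for adipocyte markers. For fast and slow fibre genes they were 1 of 13 and 1 of 15. The mean difference was negative on 5 of 6 slides for the tricarboxylic acid cycle and on 4 for the respiratory chain.

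The contractile genes differed in sign by fibre type. All 13 measured fast fibre genes were higher in the low line (median 0.131), with MYH1, the fast IIx myosin heavy chain, at 0.24, while 13 of 15 slow fibre genes were lower (median -0.121), with PLN, phospholamban of slow and cardiac muscle, at -0.66. Of 11 glycolytic genes, 9 were higher (median 0.148), and the muscle-type enzymes ENO3 and PGAM2 both stood at 0.23. No gene of these 3 lists passed. Under quantile normalization the medians were 0.0423 for fast fibre genes and 0.042 for glycolysis, and under normexp the slow fibre median turned to 0.0426. Across the alternatives the number of genes higher fell as low as 7 of 13 for fast fibre and 6 of 11 for glycolysis. For slow fibre genes it rose as high as 9 of 15, so the share of 1 sign depends on the processing. The median of the 13 muscle identity genes was 0.118 as scaled here and turned to -0.0107 under quantile normalization.

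Heat shock genes and fat cell genes were on the lower side in the low line. All 14 heat shock and chaperone genes were negative (median -0.20), with HSPH1 at -1.21 (SE 0.39, adjusted p = 0.223). Across the alternatives as many as 5 of the 14 were positive. The mean level of the heat shock list ranged from 4.25 to 4.91 in the low line and from 4.41 to 5.18 in the high-RFI group. In the restricted group it ranged from 4.55 to 5.13, so the groups overlapped. The difference of this mean was negative on 4 slides and positive on 2. Of 12 measured adipocyte markers 11 were negative (median -0.378), none passed, and the hormone-sensitive lipase LIPE stood at -0.71 and ADIPOQ at -0.85. The mean level of the adipocyte list ranged from 0.54 to 1.69 in the low line, from 0.38 to 2.44 in the high-RFI group and from 0.65 to 1.92 in the restricted group, so the groups overlapped. Its part in the differences of the other genes was not tested. Of 17 lipid synthesis genes, 12 were negative (median -0.092), with malic enzyme ME1 at -0.61.

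The remaining lists held no gene that passed. The proteasome was even, with 11 of 22 members higher (median -0.0004). Of 16 atrophy genes, 9 were higher and 7 lower (median 0.048), with FKBP5, a glucocorticoid-induced chaperone, at -1.34 (adjusted p = 0.13). Insulin and IGF signalling had 8 of 17 higher (median -0.019), with the growth factor IGF2 at 0.47 (adjusted p = 0.117). Fibroblast and matrix genes had 6 of 20 higher (median -0.087), endothelial genes 4 of 12 (median -0.081) and myogenic factors 8 of 15 (median 0.033).

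**Figure D4:**
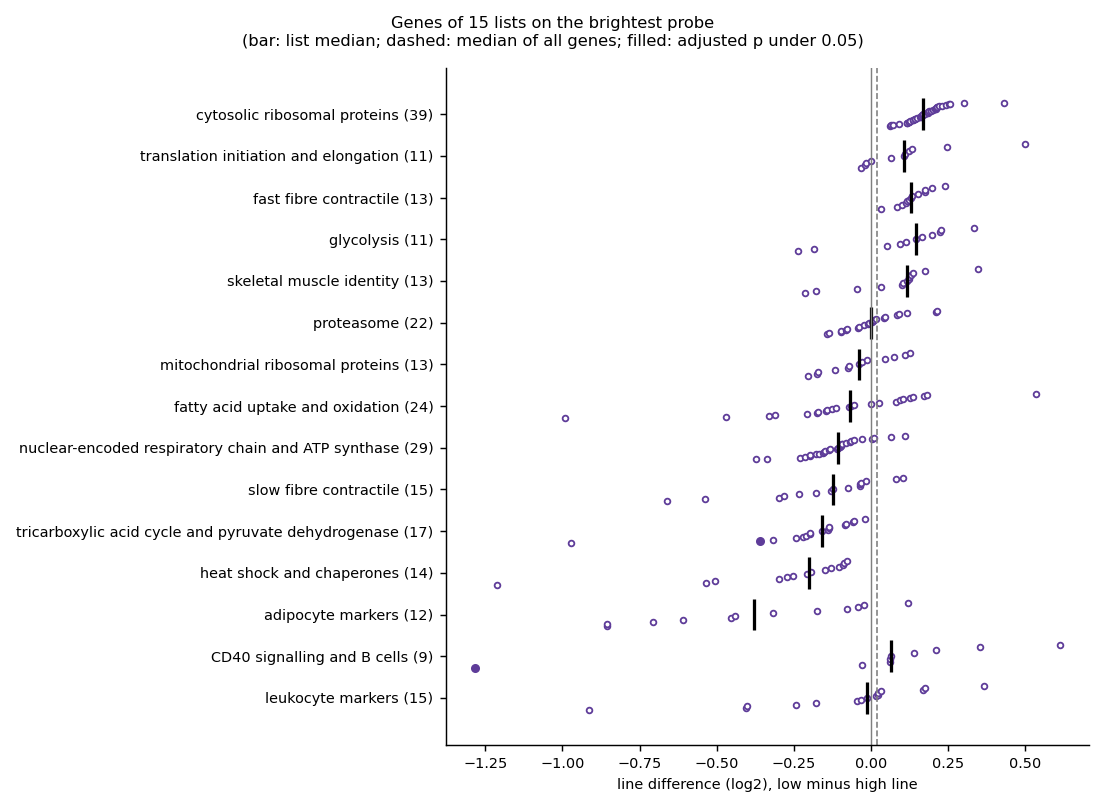
Line difference (log2, x axis) of each measured gene on its brightest probe for 15 lists (y axis, number of genes in brackets), with a bar at the list median, a dashed line at the median of all genes and filled points for adjusted p under 0.05. The 39 ribosomal protein and 13 fast fibre genes lie above 0, the 17 tricarboxylic acid cycle and 14 heat shock genes below it, and DLD and CD40 are the filled points.

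Whether the line difference depends on how the high line was fed is tested by the contrast between the restricted and freely fed high-line pigs. In this contrast 1 of 27785 probes (0.0036%) passed, and it was not among the 102. Of the 102, 16 had an unadjusted p under 0.05 in this contrast, and their smallest adjusted p was 0.102. The share of all 27785 probes with such an unadjusted p was not counted. Whether the 102 depend on feeding more or less than other probes was thus not tested. Against freely fed high-line pigs 34 probes passed (0.122%), 12 higher (0.0432%) and 22 lower (0.0792%), and 29 of the 102 were among them. Against restricted pigs 45 passed (0.162%), 20 higher (0.072%) and 25 lower (0.09%), and 38 of the 102 were among them. These comparisons share the 7 low-line pigs and the line effect is their average, so the shared probes are no result of their own.

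CD40 differed by -1.31 from freely fed and by -1.25 from restricted high-line pigs, and the difference between these groups was -0.06 (95% confidence interval -0.40 to 0.29). For OAZ3 the values were -0.65 and -0.68. RSF1 differed by 0.45 from freely fed and by 0.80 from restricted pigs, and it was lower in restricted than in freely fed pigs by an estimate of -0.35 (95% confidence interval -0.58 to -0.12, unadjusted p = 0.0040, adjusted p = 0.233). UCHL1 differed by -0.62 and -1.07, with 0.45 between the high-line groups (95% confidence interval 0.02 to 0.87, adjusted p = 0.479). GPX3 differed by -0.61 and -0.99. SAL1 (-1.76 and -1.29) and MTHFD1 (-1.11 and -0.75) had the larger estimate against freely fed pigs. None of these dependences on feeding passed after adjustment.

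**Figure D5:**
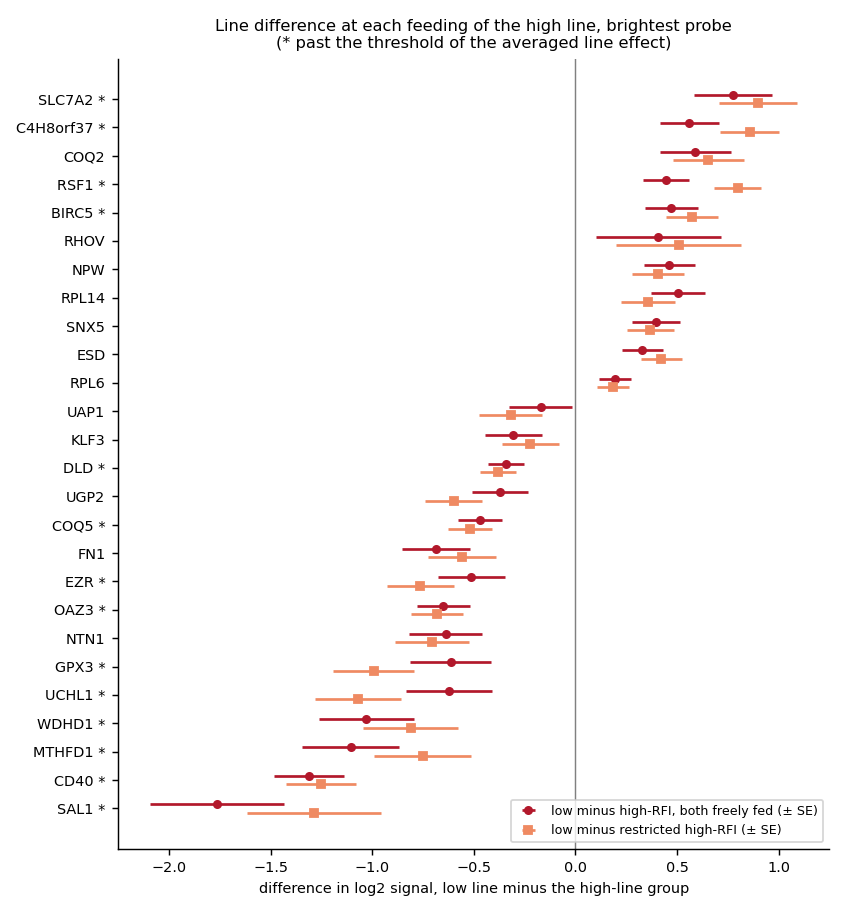
Line difference (log2, with its SE, x axis) against freely fed (circles) and restricted (squares) high-line pigs for 26 genes on their brightest probe (y axis), where a star marks genes past the threshold of the averaged effect. The comparisons share the 7 low-line pigs, and the gap between them is widest for SAL1 (-1.76 and -1.29) and UCHL1 (-0.62 and -1.07).

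The arrays lay on 6 slides scanned on 2 days, and each slide held pigs of more than 1 group. Of the 102 probes, 89 had the same sign on all 6 slides, 12 on 5 and 1, MTHFD1, on 4. All 102 had the same sign on both scan days. The 102 were chosen on these same arrays, so such agreement is largely built in. It was not counted over all probes. With slide as a fixed block 60 probes passed, and on the brightest probe 3 genes higher and 4 lower in the low line. The 4 lower were CD40 (-1.28, adjusted p = 7.37e-05), OAZ3, COQ5 and WDHD1, and those higher included RSF1 and C4H8orf37. SAL1 (-1.44, adjusted p = 0.0565), MTHFD1 (-0.87, adjusted p = 0.129), UCHL1, GPX3, EZR and DLD did not pass. Without the third slide CD40 (-1.38, adjusted p = 7.24e-05), RSF1 (0.53, 0.00762), OAZ3 (-0.76, 0.00254) and C4H8orf37 (0.77, 0.00975) passed, and the other 10 genes kept their sign but not the call, with adjusted p-values from 0.0503 for GPX3 to 0.262 for MTHFD1. The medians without it were 0.15 for ribosomal proteins, 0.134 for fast fibre genes, -0.111 for slow fibre genes, -0.192 for the tricarboxylic acid cycle, -0.175 for heat shock genes and -0.337 for adipocyte markers.

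The calls differed in how far they rest on single pigs. CD40, OAZ3, RSF1 and C4H8orf37 passed whichever of the 23 pigs was left out, with largest adjusted p-values of 0.000718, 0.0327, 0.0205 and 0.0449. SAL1 did not pass without low-RFI pig 5 (-1.30, adjusted p = 0.0578) or pig 7 (adjusted p = 0.0521). COQ5 did not pass without low-RFI pig 1 (adjusted p = 0.0552), 2 (0.0625) or 5 (0.0625). SLC7A2 did not pass without low-RFI pig 1 (0.0911), 2 (0.0575), 3 (0.061), 5 (0.0921) or 7 (0.0734). The other 7 genes lost the call in most cases: GPX3 in 17 of 23 cases, DLD in 18, BIRC5 and UCHL1 in 19, WDHD1 and MTHFD1 in 20 and EZR in 21, with largest adjusted p-values from 0.124 for GPX3 to 0.154 for MTHFD1. No gene changed sign. The count of 102 probes fell to 31 without low-RFI pig 5 and to 33 without low-RFI pig 1.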

How the data were processed

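Longissimus RNA of 23 pigs was hybridised to 1-colour Cy3 arrays. Per the file headers, the deposited scanner files hold Agilent Feature Extraction 10.7.3.1 processed intensity values, which the authors had background-subtracted by that software. The authors' deposited table holds log2 values of 26410 rows, equal to the log2 processed signal minus a constant per array, with column medians of 0. R 2.10.0 is named in the submitters' processing notes.

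From the intensities, log2 processed signal minus each array's 75th percentile over non-control spots was taken, outlier spots were dropped and spots of a probe were averaged, which left 470 probe values missing in the fit. Of 43603 probes, 27785 exceeded background clearly on 6 or more arrays of a group. Group means were fitted with limma 3.58.1 in R 4.3.3 and p-values were adjusted by Benjamini-Hochberg over all 27785. Tested on simulated data of 27326 probes, the line comparison recovered 88 of 100 probes changed by 1 and 44 of 100 changed by 0.5 (log2), and called 4 of 27126 unchanged ones. The simulated noise was normal and independent between probes and arrays, without slide or scan day effects. These rates therefore do not cover such effects or probes that share sequence.

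Probes were named from the files and RefSeq gene tables (12149 probes, 5339 symbols). Named were up to 12 genes a direction past the threshold, genes with another called probe, those next by p up to 20 in all, up to 3 genes a list by p, and up to 4 called probes without a symbol a direction. Genes and probes outside this rule were chosen after their values were seen, as were the probes with no overlap or tied to a gene by description. Some genes of the rule are not reported here. The lists and members were chosen with earlier results of these data known. Gene order is from Sscrofa11.1. Coordinates were planned but not used here, as the build of the array files was not given in the sources used here. Alternatives covered normalization, background, filters, variance models, slide, scan day, replicate number and each pig left out.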

Additional observations from a re-analysis of the deposited data

Results flagged for a closer look

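In each group of 7 or 8 pigs, the highest and lowest values were checked for a gap to the next pig that was large for the range of the group (Dixon's criterion at 95%). Of 483 groups checked, 35 met it, while chance gives about 1 in 20. All values are levels in log2 signal relative to the 75th percentile of the array.

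Among the genes past the threshold, CD40 stood at 1.318 in low-RFI pig 7, where the next low-line pig was at 0.5793. RSF1 was at 2.572 in restricted pig 8 (next 3.059), SAL1 at -0.2189 in high-RFI pig 2 (next -1.709), and BIRC5 at 1.13 in restricted pig 3 (next 0.6175). SLC7A2 was at 3.496 in high-RFI pig 3 (next 2.699) and at 1.689 in restricted pig 8 (next 2.389). MTHFD1 was at 3.538 in high-RFI pig 1 (next 4.403). Of the other probes past the threshold, RPL6 A_72_P719128 was at 7.045 in low-RFI pig 1, SNX5 A_72_P449212 at 4.996 in restricted pig 1, A_72_P427894 at -2.845 in high-RFI pig 3 (next -5.52) and A_72_P343443 at -2.619 in restricted pig 6 (next -5.541).

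The genes that did not pass had such pigs in each group. In the low line, pig 7 was far from the others for SOD2 (5.355), SHMT2 (1.194) and TRAF6 (0.9773), pig 4 for NTN1 (-0.6347), IGFBP2 (0.9289) and RHOV (-2.084), pig 2 for CSPG4 (-5.441), pig 6 for CKM (10.2) and pig 5 for CEBPA (2.563). In the high-RFI group, pig 2 was far from the others for FN1 (4.252), PGAM2 (8.169), PRKAA2 (6.855) and MRPL52 (3.633), pig 3 for PPARGC1A (3.35) and MEF2A (3.666), pig 5 for RHOV (-5.301), pig 8 for CSRP3 (3.212) and pig 6 for NR1D1 (-1.798). In the restricted group, pig 5 was far from the others for RPL14 (7.397), pig 8 for FBN1 (-1.018) and pig 4 for TRAF3 (1.526).

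The mean level of 3 lists also had a distant pig. It was 7.438 for cytosolic ribosomal proteins in high-RFI pig 2 (next 7.644), -0.08357 for CD40 signalling and B cells in low-RFI pig 7 (next 0.1232), and 1.694 for adipocyte markers in low-RFI pig 5 (next 0.9896).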

How the results depend on the processing

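All 102 probes kept their sign under each alternative that measured them, but their number moved with most settings. Compared with 102 probes (47 higher, 55 lower) and 4 higher and 10 lower genes, the number was 0 for all of these under normexp, 37 (13, 24; genes 2 and 3) under median centring, 65 (23, 42; genes 4 and 5) under quantile normalization, 54 (19, 35; genes 3 and 6) from the deposited value table, 34 (11, 23; genes 2 and 3) without the filter on dim probes, 67 (34, 33) with probes above background on all 23 arrays, 215 (106, 109; genes 14 and 17) with array weights, 60 (31, 29; genes 3 and 4) with slide as a fixed block, 34 (15, 19; genes 2 and 3) without the arrays of slide 3, and 19 (5, 14; genes 1 and 2) at an adjusted p of 0.01. Robust normexp gave 75 (42, 33; genes 5 and 7), slide as a random block 142 (72, 70; genes 6 and 11), trend and robust variance 134 (68, 66; genes 6 and 12), scan day as a block 76 (35, 41; genes 3 and 5), 1 mean over the 16 high-line pigs 85 (40, 45; genes 4 and 6), flagged spots kept 99 (46, 53; genes 4 and 8), and a difference of at least 0.5 as well 82 (34, 48; genes 4 and 8).

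Against freely fed pigs (34) the number was 23 under median centring, 0 under normexp, 20 from the deposited table, 22 without the filter, 18 with the stricter filter, 52 with trend and robust variance, 119 with array weights, 19 with slide fixed, 18 without slide 3 and 14 at 0.01. Against restricted pigs (45) it was 23, 0, 21, 18, 59, 76, 99, 25, 15 and 10 in that order, and 98 with slide as a random block. Between the high-line groups (1) it was 3 with scan day, 2 with slide as a random block, and 0 under median centring, normexp, robust normexp, no filter, trend and robust variance, slide fixed, without slide 3 and at 0.01.

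Leaving out 1 pig at a time gave 31 to 113 probes, 9 to 59 higher and 19 to 54 lower, 2 to 5 genes higher and 2 to 8 lower, 22 to 40 probes against freely fed pigs, 18 to 68 against restricted pigs and 0 to 7 between the high-line groups.

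The deviations of pigs with the same replicate number correlated above 0.1 in 7 of 22 pairs (range -0.301 to 0.331, median 0.0482). Whether the number marks a pairing was not tested. With the replicate block, 55 probes passed (18 higher, 37 lower; genes 3 and 4), 28 against freely fed, 20 against restricted and 0 between the high-line groups.

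Signs reversed under quantile normalization for CKM (-0.002988) and the muscle identity median (-0.0107). Under normexp they reversed for MYOT (0.002404), RHOV (-0.06499), CD3E (-0.03798), DDX58 (-0.01521), PPP1R3C (0.03205) and NR1D1 (-0.08515), and NR1D1 also reversed with slide fixed (-0.02016). The normexp SEs of these genes ran from 0.3059 for CD3E to 0.4812 for PPP1R3C, larger than the values themselves. Signs of small differences under normexp are therefore uncertain. Normexp moved the list medians to 0.2868 for muscle identity, 0.314 for fast fibre, 0.3654 for ribosomal proteins, 0.1101 for mitochondrial ribosomal proteins, 0.3368 for glycolysis, 0.0908 for the respiratory chain, 0.1967 for the proteasome and 0.1526 for antioxidants. The cause was not tested. CD40 and RSF1 passed in 40 of 41 alternatives, all but normexp, C4H8orf37 in 39 of 41 and OAZ3 in 38 of 40. Dim probes limit what can be read: 58 of the 102 were above background on all 23 arrays.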
